A study of Homo sapiens with 4 samples.

Results

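Histone chaperones are proteins that escort histones, keep them from sticking to other partners and hand them to DNA. The transcripts of 10 genes of this kind were described in MV4-11, a human AML cell line that carries an MLL fusion, with and without knockdown of the transcription factor CEBPG. They are SUPT16H and SSRP1, SUPT6H, ASF1A, ASF1B, CHAF1A, CHAF1B, NASP, HIRA and NAP1L1, 10 of the 16490 genes with values. The genes were chosen by family, but with their difference between sh-CEBPG#3 and sh-NC cells already known. Their differences are therefore given as a description, without a p-value.

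The control group, sh-NC, consists of 2 libraries of MV4-11 cells with a control hairpin, and the knockdown group, sh-CEBPG#3, of 2 libraries of MV4-11 cells with the CEBPG hairpin of that number. Hairpins were delivered by a lentiviral vector with puromycin selection, so that both groups carried an integrated vector and had been exposed to the drug. These libraries hold only a single CEBPG hairpin, so in them an effect of the hairpin and an effect of losing CEBPG cannot be told apart. The paper also sequenced NB4 cells with CEBPG knockdown and used further CEBPG hairpins in knockdown and growth assays. Those data are not covered here. Whether the 2 libraries in each group stem from separate infections is not stated in the labels, so p-values measure only the spread between these libraries, which may be technical. CEBPG itself had 30.4 and 33.6 FPKM in sh-NC cells and 19.2 and 17.1 FPKM in sh-CEBPG#3 cells, a partial knockdown. FPKM counts fragments relative to exon length and to the mapped reads of the library, so that levels of different genes can be compared per length.

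Across libraries, FPKM totals ranged from 364353 to 389766, the read depth is unknown, and the 7 myeloid leukemia markers checked were above 1 FPKM in all 4 libraries (CD33, FLT3, HOXA9, MEIS1, SPI1, MPO and PTPRC). Of 10 markers of other cell types, 6 were not listed, COL1A1 was at most 0.0781 FPKM, and KRT18 and PECAM1 were detected. PECAM1, an endothelial cell marker that leukocytes also carry, had 18.5 and 21.8 FPKM in sh-NC cells and 43.4 and 40.8 FPKM in sh-CEBPG#3 cells, and the summed level of the listed markers was 28.6 and 32.7 FPKM against 53.2 and 49.7 FPKM. The part of this difference in the chaperone values was not tested. In such bulk RNA, fewer cells of a kind and less RNA per cell cannot be told apart.

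The nucleosome is built in steps, and each chaperone serves some of them. NASP and the ASF1 proteins hold newly made H3-H4. ASF1 passes it either to CAF-1, the complex that assembles nucleosomes behind the replication fork, or to HIRA. HIRA deposits the replacement variant of H3 independently of replication. NAP1L1 escorts H2A-H2B, and FACT and SUPT6H take nucleosomes apart and rebuild them as RNA polymerase II passes, FACT also at the replication fork. In proliferating cells such as leukemia blasts, the replication-linked chaperones are known to be highly expressed.

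The sequence upstream of 4 of these genes is shown because they include the gene with the largest difference (SUPT16H), the large CAF-1 subunit (CHAF1A) and the paralogs ASF1A and ASF1B, which differed in response. Each run is the 120 bases before the start of the gene, read in the direction of the gene, from RefSeq on GRCh38.p14. The runs lie at chr14:21384020-21384139 (minus strand) for SUPT16H, chr19:4402520-4402639 (plus strand) for CHAF1A, chr6:118894032-118894151 (plus strand) for ASF1A and chr19:14136590-14136709 (minus strand) for ASF1B. Capitals mark matches to a motif on either strand, a CCAAT box or, in ASF1B, the cell cycle homology element TTTGAA.
SUPT16H: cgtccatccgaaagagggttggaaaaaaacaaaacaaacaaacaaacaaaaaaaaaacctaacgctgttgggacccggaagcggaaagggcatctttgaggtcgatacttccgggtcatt
CHAF1A: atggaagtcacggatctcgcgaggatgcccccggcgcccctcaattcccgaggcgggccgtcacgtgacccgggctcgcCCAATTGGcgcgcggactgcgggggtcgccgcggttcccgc
ASF1A: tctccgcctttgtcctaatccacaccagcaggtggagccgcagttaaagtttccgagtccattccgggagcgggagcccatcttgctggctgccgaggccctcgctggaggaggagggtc
ASF1B: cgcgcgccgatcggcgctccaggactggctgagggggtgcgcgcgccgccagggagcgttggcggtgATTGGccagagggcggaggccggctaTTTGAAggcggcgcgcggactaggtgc

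Over the 250 bases before the start, CCAAT was found in 3 of the 10 genes, CHAF1A, ASF1B and NASP, and in 32.0% of the 35116 promoters of the same length. In CHAF1A a CCAAT on the plus strand and another on the minus strand overlapped, at 41 to 37 and 38 to 34 bases before the start. ASF1B had a CCAAT on the minus strand at 53 to 49 and TTTGAA on the plus strand at 27 to 22 bases before the start, the latter being present in 13.3% of all promoters. The E2F site TTTCCCGC was found in HIRA alone (1.39% of all promoters), and another form of it, TTTGGCGC, in none of the 10 (0.550%). The C/EBP palindrome TTGCGCAA and the C/EBP-ATF composite site TGATGCAA, at which CEBPG can bind with ATF4, were not found in any of the 10 windows, while 0.131% and 0.772% of all promoters held them. Both strands were searched, and a match or its absence describes these letters only.

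FACT is a heterodimer of SUPT16H, the large subunit, and SSRP1, the subunit with the HMG box. SUPT16H (chr14:21351476-21384019, transcript NM_007192) had 29.9 and 33.4 FPKM in sh-NC cells and 10.8 and 10.2 FPKM in sh-CEBPG#3 cells. Both knockdown libraries lay far below both controls, with means of 31.6 ± 2.52 and 10.5 ± 0.362 FPKM (SD, n = 2 each), so that 33.2% of the control level was left. On the log2(FPKM + 1) scale used for every fold change here, the difference was -1.50 with a standard error of 0.09, and SUPT16H ranked 24 from the lowest among the 12142 genes tested. SSRP1 (chr11:57325988-57335892, NM_003146) had 62.2 and 67.3 FPKM in sh-NC cells and 46.0 and 46.8 FPKM in sh-CEBPG#3 cells. Its groups did not overlap either, but 71.6% of the control level was left, and its log2 fold change was -0.47 (standard error 0.07).

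The proportion of the FACT subunits thus differed between the groups. For each SUPT16H transcript per length there were 2.08 and 2.01 of SSRP1 in control cells and 4.27 and 4.56 after knockdown, a ratio that no scaling of a whole library can change. The other elongation chaperone, SUPT6H (chr17:28662205-28702679, NM_003170), which travels with the polymerase and handles H3-H4, had 21.2 and 22.3 FPKM in sh-NC cells and 19.5 and 18.3 FPKM in sh-CEBPG#3 cells. Its log2 fold change of -0.19 (standard error 0.08) was small, with 87.0% of the control level left. SUPT6H stood at 0.708 and 0.667 of the SUPT16H level in the controls and at 1.81 and 1.79 of it in the knockdown libraries, so the order of these genes was turned round.

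CAF-1 consists of CHAF1A, which binds the sliding clamp PCNA at the fork, CHAF1B and the WD40 protein RBBP4. CHAF1A (chr19:4402640-4450830, NM_005483) had 30.7 and 33.1 FPKM in sh-NC cells and 16.7 and 16.02 FPKM in sh-CEBPG#3 cells. The level left was 51.3% of the control, with a log2 fold change of -0.92 (standard error 0.08), the second largest difference of the 10 genes. CHAF1B (chr21:36385392-36419015, NM_005441), the least abundant of the 10, had 7.93 and 8.40 FPKM in sh-NC cells and 5.17 and 5.93 FPKM in sh-CEBPG#3 cells. Its groups did not overlap, and its log2 fold change was -0.49 (standard error 0.10). The ratio of CHAF1A to CHAF1B was 3.88 and 3.94 in the controls and 3.23 and 2.70 in the knockdown libraries, so that CHAF1A was the more affected subunit.

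**Figure D1:**
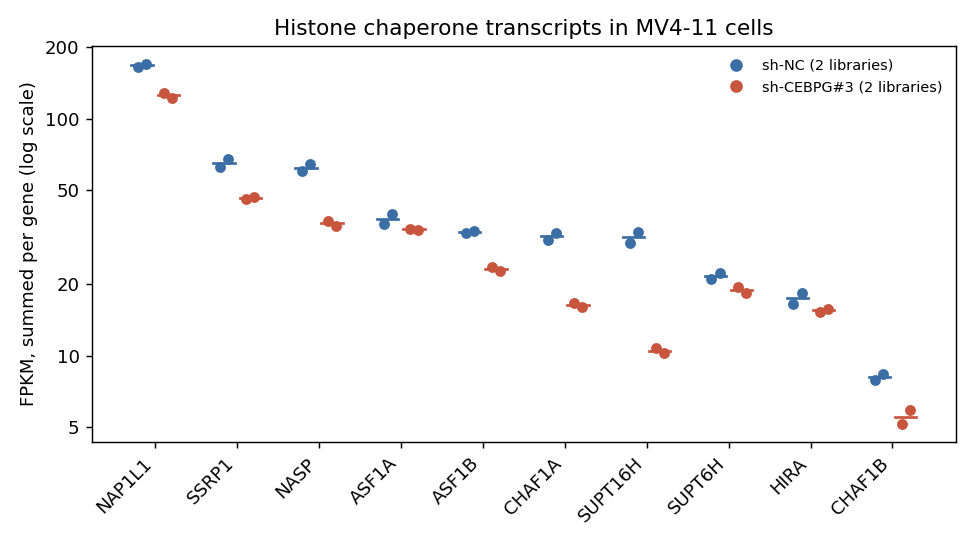
FPKM of the 10 histone chaperone genes in each library on a log axis, ordered by their mean in sh-NC cells, with points for libraries and lines for group means. Every sh-CEBPG#3 library lies below both sh-NC libraries for its gene, with the widest gap at SUPT16H (31.6 against 10.5 FPKM) and narrow gaps at ASF1A, HIRA and SUPT6H.

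Among the carriers of soluble H3-H4, NASP, which protects the reserve of H3-H4 from degradation, differed most. NASP (chr1:45584041-45618893), summed over 3 transcripts, had 60.3 and 64.1 FPKM in sh-NC cells and 37.0 and 35.4 FPKM in sh-CEBPG#3 cells. The level left was 58.2% of the control, and the log2 fold change was -0.76 (standard error 0.07). ASF1B (chr19:14119512-14136589, NM_018154), the paralog linked to proliferation, had 33.1 and 33.7 FPKM in sh-NC cells and 23.6 and 22.7 FPKM in sh-CEBPG#3 cells, a log2 fold change of -0.51 (standard error 0.07). ASF1A (chr6:118894152-118909171, NM_014034), the paralog that favours HIRA, had 35.8 and 39.8 FPKM in sh-NC cells and 34.3 and 33.9 FPKM in sh-CEBPG#3 cells. Its groups were separated by less than the spread within sh-NC cells, and its log2 fold change was -0.14 (standard error 0.08). The ratio of ASF1A to ASF1B accordingly went from 1.08 and 1.18 in the controls to 1.45 and 1.49 in the knockdown libraries.

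HIRA (chr22:19330698-19431733, NM_003325) is the scaffold of the complex that deposits H3 independently of replication. It had 16.6 and 18.4 FPKM in sh-NC cells and 15.4 and 15.8 FPKM in sh-CEBPG#3 cells, a log2 fold change of -0.16 (standard error 0.08), with 89.1% of the control level left. As for ASF1A, its groups were separated by less than the spread within sh-NC cells. Relative to CHAF1A, its replication-coupled counterpart, HIRA was at 0.539 and 0.556 in the controls and at 0.921 and 0.984 in the knockdown libraries. HIRA and CHAF1A transcripts were thus at nearly the same level per length after knockdown. NAP1L1 (chr12:76036585-76084685), the carrier of H2A-H2B, was the most abundant gene, with 165 and 170 FPKM in sh-NC cells and 129 and 122 FPKM in sh-CEBPG#3 cells. Its log2 fold change was -0.42 (standard error 0.07), and 74.7% of the control level was left.

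**Figure D2:**
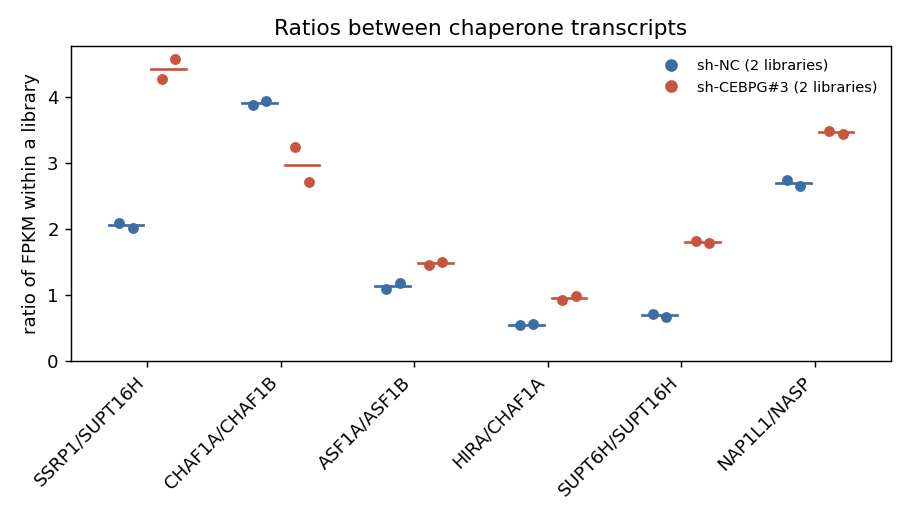
Ratio of the FPKM of 2 chaperone genes within each library, with points for libraries and lines for group means. SSRP1 against SUPT16H goes from about 2.08 and 2.01 to 4.27 and 4.56, and HIRA against CHAF1A from 0.539 and 0.556 to 0.921 and 0.984.

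Read together, all 10 genes had a negative log2 fold change, from -1.50 to -0.14 with a median of -0.48, where the median of all genes tested was -0.04. In all 10, both sh-CEBPG#3 libraries lay below both sh-NC libraries, which was so for 40.2% of all genes tested. With limma's test over all genes and a Benjamini-Hochberg adjusted p under 0.05 as the call, 7 of the 10 were called lower and 0 higher, beside 23.8% and 18.5% of all genes (at an unadjusted p under 0.05, 8 lower and 0 higher). SUPT16H was the only member below a log2 fold change of -1 with an unadjusted p under 0.05, the size of change the study used for its differentially expressed genes, beside 1.05% of all genes. ASF1A, HIRA and SUPT6H were not called. ASF1A was called without sh-NC replicate 1, ASF1A and SUPT6H were with quantile normalization, and these and HIRA were once the libraries were scaled to equal totals. As the contrast chose the genes, these counts carry no evidence of their own.

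**Figure D3:**
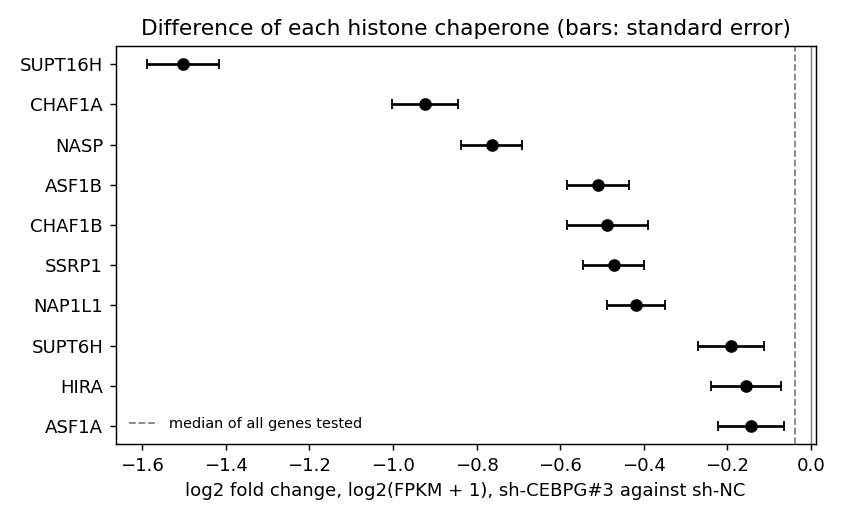
Log2 fold change of each histone chaperone gene on the log2(FPKM + 1) scale, sh-CEBPG#3 against sh-NC, with bars for the standard error from limma and a dashed line at the median of all 12142 genes tested (-0.04). SUPT16H lies farthest out at -1.50, followed by CHAF1A at -0.92 and NASP at -0.76, while SUPT6H, HIRA and ASF1A lie at -0.19, -0.16 and -0.14.

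By level per length in sh-NC cells, the order was NAP1L1, SSRP1, NASP, ASF1A, ASF1B, CHAF1A, SUPT16H, SUPT6H, HIRA and CHAF1B. SSRP1 and NASP overlapped there (62.2 to 67.3 against 60.3 to 64.1 FPKM), as did CHAF1A and SUPT16H (30.7 to 33.1 against 29.9 to 33.4 FPKM), and the range of ASF1B (33.1 to 33.7 FPKM) overlapped that of SUPT16H. In sh-CEBPG#3 cells the places of the abundant genes were the same from NAP1L1 to ASF1B, but SUPT6H stood sixth and SUPT16H ninth, just above CHAF1B, and no neighbouring ranges overlapped. Summed over the 10 genes, the chaperones took 463 and 490 FPKM in the controls and 337 and 327 FPKM in the knockdown libraries.

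NASP and NAP1L1 are each listed with 3 RefSeq transcripts, and the other 8 genes with a single transcript. For NASP, the main transcript NM_152298 had 51.8 and 54.4 FPKM in sh-NC cells and 29.4 and 29.3 FPKM in sh-CEBPG#3 cells, and made up 79.5% to 85.9% of the gene in every library. NM_002482, the longer testis-type form, had 5.64 and 9.68 FPKM in sh-NC cells and 4.73 and 6.10 FPKM in sh-CEBPG#3 cells, so that its groups overlapped. NM_001195193 was listed at 2.89 and 0.032 FPKM in sh-NC cells and at 2.88 and 0 FPKM in sh-CEBPG#3 cells, differing more within a group than between groups.

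For NAP1L1, NM_004537 had 120 and 121 FPKM in sh-NC cells and 89.8 and 81.3 FPKM in sh-CEBPG#3 cells. The second transcript, NM_139207, had 39.7 and 43.6 FPKM in sh-NC cells and 35.7 and 37.2 FPKM in sh-CEBPG#3 cells, 87.6% of its control level against 71.0% for NM_004537. Its share of the gene was 24.0% and 25.7% in the controls and 27.7% and 30.6% in the knockdown libraries. The third, NM_001307924, had 5.14 and 5.57 FPKM in sh-NC cells and 3.09 and 3.21 FPKM in sh-CEBPG#3 cells. Values of overlapping transcripts depend on how reads were divided among them, and the shares rest on that division.

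**Figure D4:**
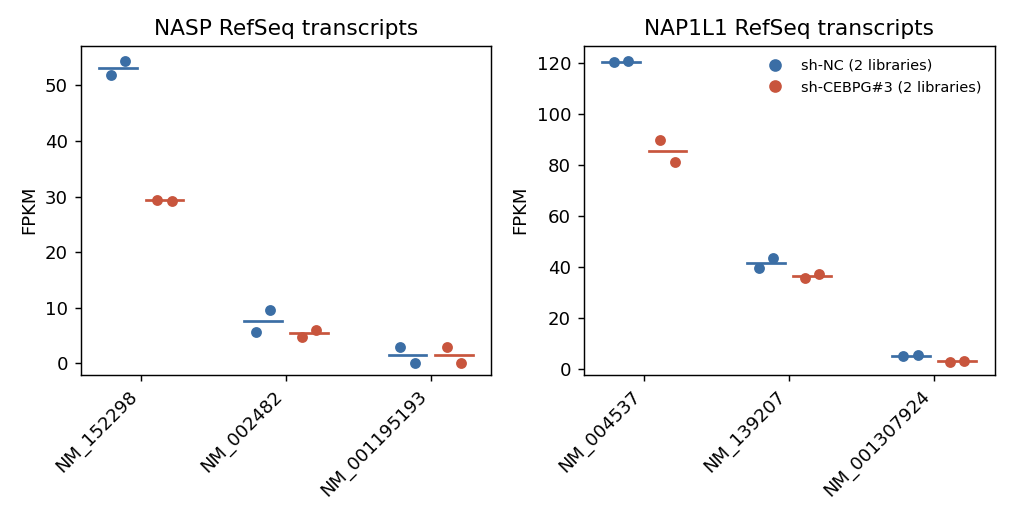
FPKM of each RefSeq transcript of NASP (left) and NAP1L1 (right) in each library, with points for libraries and lines for group means. NM_152298 of NASP and NM_004537 of NAP1L1 carry most of the gene and of the difference, while NM_001195193 of NASP is near 0 in 1 library of each group and near 2.89 FPKM in the other.

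Of 37 other histone chaperones and partners, 35 were tested, of which 20 were called lower and 2 higher, with a median log2 fold change of -0.31. That is 57.1% lower, beside 23.8% of all genes. This list and those below were also chosen with earlier results of these data known. Their counts and adjusted p-values are therefore a description and no independent support. The lowest was HIRIP3, a chaperone named for binding HIRA, with 10.7 and 10.05 FPKM in sh-NC cells and 3.86 and 3.18 FPKM in sh-CEBPG#3 cells (log2 fold change -1.34, adjusted p = 7.69e-06 in limma). MCM2, the helicase subunit that holds parental H3-H4 at the fork, fell from 56.3 ± 5.50 to 28.0 ± 1.76 FPKM (SD, n = 2 each; adjusted p = 1.96e-05 in limma). ANP32B, an acidic chaperone of the ANP32 family, fell from 136 ± 3.201 to 69.1 ± 1.77 FPKM (SD, n = 2 each; adjusted p = 4.69e-06 in limma).

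The 2 genes that rose were of low level. NAP1L5 had 1.54 and 1.14 FPKM in sh-NC cells and 2.63 and 2.08 FPKM in sh-CEBPG#3 cells (adjusted p = 0.0121 in limma), and TSPYL4 had 2.10 and 2.01 against 2.99 and 2.69 FPKM (adjusted p = 0.0349 in limma). Neither was called without sh-CEBPG#3 replicate 1, and TSPYL4 also not without either sh-NC library. Among partners of the members, chosen after their values were seen, RBBP4 of CAF-1 was lower by limma (log2 fold change -0.40, adjusted p = 0.00472), as was CABIN1 of the HIRA complex (-0.43, adjusted p = 0.0026), while UBN1 of the same complex, at -0.06, was not called (adjusted p = 0.641). NPM1, the abundant nucleolar chaperone, had 664 and 713 FPKM in sh-NC cells and 648 and 622 FPKM in sh-CEBPG#3 cells and was not called.

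Genes of DNA replication and S phase were lower beside the replication-linked chaperones. Of the 40 on the list, 37 were called lower and 0 higher in limma (at an unadjusted p under 0.05, 38 lower and 1 higher). That is 92.5% lower and 0% higher, beside 23.8% and 18.5% of all genes, with a median log2 fold change of -0.63. UHRF1, which couples DNA methylation to replication, fell from 49.6 ± 2.92 to 18.3 ± 0.420 FPKM (SD, n = 2 each; adjusted p = 9.59e-07 in limma), and TIMELESS, a fork protection factor, fell from 24.2 ± 2.40 to 9.94 ± 0.148 FPKM (SD, n = 2 each; adjusted p = 5.96e-06 in limma). PCNA, the clamp to which CHAF1A binds, had 146 and 164 FPKM in sh-NC cells and 105 and 97.4 FPKM in sh-CEBPG#3 cells.

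Of the S-phase genes, RRM2, GINS3 and CCNE2 were not called, and RRM2, a subunit of ribonucleotide reductase, had 24.1 and 25.3 FPKM in sh-NC cells and 28.8 and 27.2 FPKM in sh-CEBPG#3 cells. RRM2 was called higher with quantile normalization and with equal totals. Whether the share of cells in S phase had a part in the chaperone values was not tested.

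Factors of RNA polymerase II elongation, among which SUPT6H and FACT work, were divided. The list, called elongation factors here, also holds subunits of the polymerase itself. Of 29 genes tested, 13 were called lower (44.8%, beside 23.8% of all genes) and 4 higher (13.8%, beside 18.5%), with a median log2 fold change of -0.21. Without sh-CEBPG#3 replicate 2, 5 were called lower (17.2%, beside 16.1% of all genes) and 2 higher (6.90%, beside 15.9%), so that the share called lower was then near the background. The 3 lowest were LEO1 of the PAF1 complex (-0.59, adjusted p = 0.000327), WDR61 (-0.50, adjusted p = 0.00637), which also serves that complex, and CCNT1, a cyclin of P-TEFb (-0.46, adjusted p = 0.005), by limma. WDR61 lost its call without sh-CEBPG#3 replicate 2, with no filter on low values (adjusted p = 0.0633 in limma) and with the most abundant transcript in place of the gene sum (adjusted p = 0.0658 in limma). The genes called higher were the polymerase subunit POLR2G (0.44), CDK9 (0.35), SUPT4H1 (0.34) and SUPT5H (0.27). SUPT4H1 and SUPT5H form DSIF, a pausing and elongation factor. CDK9 lost its call without sh-CEBPG#3 replicate 2 and with the most abundant transcript (adjusted p = 0.053 in limma), and SUPT5H without either sh-CEBPG#3 library, without sh-NC replicate 1 and under the replicate block.

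Histones are the cargo of the chaperones. Of 65 replication-dependent histone genes, 21 were tested, and 12 of these were called higher and 0 lower in limma (14 and 0 at an unadjusted p under 0.05). That is 57.1% higher and 0% lower, beside 18.5% and 23.8% of all genes. Of those 12, 6 had a mean under 0.5 FPKM in sh-NC cells and passed the filter only through sh-CEBPG#3 cells, where they were high, so the count is a description of the genes that passed and is no support for a direction of the class. The other 6 had a mean of at least 0.5 FPKM in sh-NC cells. Genes of this class make mRNAs that normally end without a poly(A) tail, and their levels were mostly low. H2BC12 was the highest of them, with 9.40 and 9.96 FPKM in sh-NC cells and 51.5 and 49.4 FPKM in sh-CEBPG#3 cells (log2 fold change 2.27, adjusted p = 3.2e-08 in limma). H2AC18 had 1.01 and 0.960 FPKM against 7.40 and 6.14 FPKM (adjusted p = 1.28e-06 in limma). H2AC19, among the 6 that passed the filter only through sh-CEBPG#3 cells, was listed at 0 and 0.843 FPKM against 3.82 and 4.27 FPKM. H2AC18 and H2AC19 are nearly identical copies between which reads can be split, so their single values are uncertain.

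Of 10 replication-independent histone genes, 3 were called lower and 3 higher, 30.0% each beside 23.8% and 18.5% of all genes, which with 10 genes is no result about the list. Without either sh-CEBPG#3 library, CENPA alone of them was called lower. CENPA, the centromeric H3, fell from 8.57 ± 0.613 to 4.66 ± 0.180 FPKM (SD, n = 2 each; adjusted p = 0.000168 in limma), and H2AZ1 and H1-10 fell less, with log2 fold changes of -0.35 and -0.29. H3-3B, which encodes the H3 variant that HIRA deposits, rose from 131 ± 1.55 to 172 ± 2.21 FPKM (SD, n = 2 each; adjusted p = 0.00109 in limma), and H2AJ (0.55) and MACROH2A1 (0.27) also rose. The calls of H2AZ1, H1-10 and MACROH2A1 were lost when either sh-CEBPG#3 library was left out, and MACROH2A1 was also not called with the replicate number as a block (adjusted p = 0.067 in limma) or with the most abundant transcript (adjusted p = 0.0585 in limma). H3-3A, a second gene for the same H3 variant, had 120 and 8.23 FPKM in sh-NC cells and 121 and 123 FPKM in sh-CEBPG#3 cells, so that sh-NC replicate 2 alone stands apart (log2 fold change 1.88, adjusted p = 0.0944 in limma). H3-3A was called higher without sh-NC replicate 1, where that library alone stood for the controls, and with the block.

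**Figure D5:**
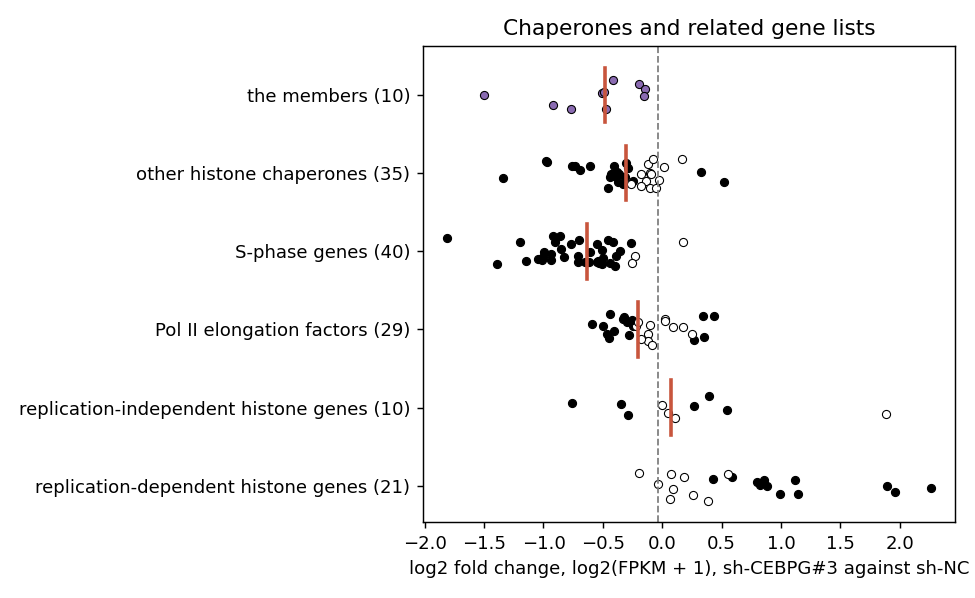
Log2 fold change on the log2(FPKM + 1) scale, sh-CEBPG#3 against sh-NC, of the 10 histone chaperones and of each gene tested in 5 related lists. The chaperones are purple and drawn without their calls. In the lists, points are filled for an adjusted p under 0.05 in limma and open otherwise, and the number of genes is in brackets. Red lines are medians, the lowest being -0.63 for S-phase genes. No median is drawn for replication-dependent histone genes, of which 8 of 21 passed the filter only through sh-CEBPG#3 cells, and the dashed line is the median of all genes tested (-0.04).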

How the data were processed

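RNA-seq libraries of MV4-11 cells, 2 per group, were analysed from 1 deposited table. After read filtering, the authors mapped to hg38 with HISAT2 2.0.5, by the submitters' processing notes, and deposited FPKM values for 28780 RefSeq transcripts, of which 199 had no value. The program that computed FPKM is not given in the sources used here. Since FPKM is not a count, DESeq2, which the authors used, was not run. Steps of whole reads were not seen among low values (of 1027 transcripts under 0.06 FPKM in both sh-NC libraries, at most 0.974% shared a ratio between them), so depth is unknown and no detection limit is given.

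FPKM was summed per gene symbol, and 12142 genes whose mean reached 0.5 FPKM were fitted as log2(FPKM + 1) with limma 3.58.1 in R 4.3.3 (eBayes with a trend, no block), with Benjamini-Hochberg adjustment over all of them. Such fold changes understate the change of low genes. An exact permutation test of 2 against 2 libraries cannot pass 0.05, so p-values rest on limma's variance model. The fit was tested on simulated data. The members and gene lists were chosen with earlier results of these data known. Named from each list were at most 3 genes with the lowest and 3 with the highest fold change among those called without overlap. Some results for single genes are left out. Promoters and gene positions are from RefSeq (GRCh38.p14), searched with Python 3.11.15, and all 10 members matched by symbol. The alternatives were other pseudocounts, filters and scalings, the replicate block, the most abundant transcript of each gene and each library left out, where a lone library is assumed to vary like the other group.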

Additional observations from a re-analysis of the deposited data

How the results depend on the processing

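All 10 chaperone genes kept a negative log2 fold change under the 12 alternatives. SUPT16H ranged from -1.59 to -1.42, CHAF1A from -0.97 to -0.87 and NASP from -0.83 to -0.72, and ASF1A was nearest to 0 at -0.07, with a library left out. Of 120 such values 3 moved by more than the spread between replicates, SUPT16H with a pseudocount of 0.01 (-1.59) and, with the most abundant transcript, NASP (-0.83) and NAP1L1 (-0.49). With that unit, 1535 genes were called lower against 2884 and 1329 higher against 2244, and 8 elongation factors lower against 13. Left-out libraries gave 5 to 14 elongation factors lower and 2 to 4 higher. The genes past 2-fold at an unadjusted p under 0.05 were 414, and 827 and 882 with pseudocounts of 0.1 and 0.01, which weigh low values more.

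The 2 other chaperones called higher became 0 with no filter and with the most abundant transcript, and 0 to 2 with a library left out. S-phase genes called higher were 1 (RRM2) with quantile normalization and 1 with equal totals. Replication-independent histone genes called lower were 1 to 3 without a library. Replication-dependent histone genes called lower were 1 with no filter (H4C1) and 0 to 1 with a library left out (H2AC20, without sh-CEBPG#3 replicate 2), and those called higher were 7 against 12 with a mean of at least 1 FPKM, as fewer were tested. Of 288 values of CEBPG and the other named genes 25 lost their call and 0 changed direction. Other causes of these changes were not tested. Libraries of the same number deviated with a correlation of 0.061 across genes. With 2 libraries per group this value cannot show whether they were handled together, and the labels do not say. With the replicate block 7 of the 10 chaperones were called lower as before, beside 22.0% of all genes. Without read counts, low genes cannot be weighted by depth.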
